A study of Mus musculus with 12 samples.

Results

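The 9 genes described here are the tendon and ligament genes Scx, Mkx, Tnmd, Tnc and Thbs4, the genes of the secreted proteins Egfl6, Smoc1 and Htra4, and the kinase gene Stk26. They were chosen by name, with the levels of these genes in the CSP, Thy and SSC arrays already known, from 18193 genes that had a probe set with a single gene symbol. All 9 passed the filter on dim probe sets, which left 12516 genes for testing. Gene expression was measured with 12 microarrays, 1 per sample, in 3 osteoprogenitor populations sorted by flow cytometry from mouse bones and labelled CSP, Thy and SSC. Each population had 2 arrays labelled JUN and 2 labelled -JUN, so 4 arrays in all. The question was what 2 days of JUN, an AP-1 transcription factor, did to these cells.

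The groups were CSP JUN, CSP -JUN, Thy JUN, Thy -JUN, SSC JUN and SSC -JUN. Every animal is labelled as a JUN-inducible mouse on regular diet, and JUN was switched on in pups by doxycycline drunk by the mother, with sorting after 2 days. The label -JUN is read here as the arm without induction. This reading is an assumption, since the labels give every sample, those of -JUN included, the same doxycycline text. The strain, the exact age, the sex and the promoter behind the inducible allele stand in none of the labels. RNA of each sample came from limb bones, skull cap, scapula, vertebrae and ribs in 1 pool, so bone sites cannot be told apart. The sample titles name 5 mice: mice 4 and 7 carry the JUN label, and mice 3, 3b and 10 carry -JUN. A shared mouse number is read as 1 animal, and mouse 10 gave 1 SSC array only. The SSC arrays of mice 3, 7 and 10 carry a date in their titles and no other array does, so within mice 3 and 7 an SSC array with a date is joined to CSP and Thy arrays without one. The labels do not say what the date marks. Among arrays without a date, only mouse 4 allows a comparison with SSC.

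Tendons and ligaments join muscle to bone and bone to bone, and their cells build a matrix of aligned collagen fibres. Scleraxis, the product of Scx, is a basic helix-loop-helix transcription factor of tendon progenitors, which binds E-box sequences in DNA as a dimer, and Mohawk, the product of Mkx, is a homeobox factor that acts in tendon fibre growth. Tenomodulin, the product of Tnmd, is a transmembrane glycoprotein of tendon cells that depends on scleraxis, while tenascin-C (Tnc) and thrombospondin-4 (Thbs4) are matrix glycoproteins found at tendon and its attachment to muscle. EGFL6 is a secreted protein with EGF repeats, SMOC1 a secreted calcium-binding protein related to SPARC, HTRA4 a secreted serine protease, and STK26 (also called MST4) a kinase that binds PDCD10.

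Promoters are shown for 3 of the 5 genes whose CSP arrays lay highest against Thy, as the stretch where E-boxes (CANNTG, which reads the same on both strands) could stand. Each is the 250 bases upstream of a RefSeq transcript start in GRCm38.p6, written 5′ to 3′ on the gene's strand, with E-boxes in capitals. Tnmd is at chrX:133850758-133851007 on the plus strand, Egfl6 at chrX:166585717-166585966 on the minus strand and Stk26 at chrX:50841121-50841370 on the plus strand. The Tnmd and Egfl6 windows end at the outermost start of the gene, whereas the Stk26 gene is annotated from position 50841174, inside its window.
Tnmd: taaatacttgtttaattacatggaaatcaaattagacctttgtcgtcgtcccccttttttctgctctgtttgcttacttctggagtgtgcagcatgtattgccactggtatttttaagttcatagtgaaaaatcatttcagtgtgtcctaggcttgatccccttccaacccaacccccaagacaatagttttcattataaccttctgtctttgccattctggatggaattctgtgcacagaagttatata
Egfl6: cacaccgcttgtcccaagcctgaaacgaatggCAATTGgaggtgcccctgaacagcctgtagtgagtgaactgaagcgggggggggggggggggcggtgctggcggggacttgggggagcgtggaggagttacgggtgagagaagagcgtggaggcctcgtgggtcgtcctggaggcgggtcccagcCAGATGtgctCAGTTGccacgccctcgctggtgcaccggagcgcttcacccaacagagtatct
Stk26: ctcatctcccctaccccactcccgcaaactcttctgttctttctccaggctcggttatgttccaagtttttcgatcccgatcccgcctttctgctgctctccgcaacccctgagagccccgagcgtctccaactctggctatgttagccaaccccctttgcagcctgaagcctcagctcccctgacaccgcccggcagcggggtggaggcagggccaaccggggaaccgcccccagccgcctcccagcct
The Egfl6 window held 3 E-boxes, 1 of them CAGATG, and the Tnmd and Stk26 windows held 0. Windows were found for 5 of the 9 genes, and beside these 3 the 2 start sites of Tnc held 3 and 2 E-boxes and the Thbs4 window held 1. Of all 32851 mouse windows of this length, 66.2% held an E-box and 14.4% held CAGATG on either strand. The AP-1 motif TGANTCA was in none of the windows of these genes, against 6.75% of all windows. A match of letters is a description and shows no binding.

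Some features of the arrays bear on every value below. Levels are log2 values that the authors made with RMA, so a step of 1 is a doubling of signal, and levels of different genes are not compared. Thy1, the gene of the antigen that Thy is named for, differed by -4.51 ± 0.34 (SE) in CSP minus Thy (limma, adjusted p = 7.69e-05). Of other listed sort antigens, Eng was at 1.57 in CSP minus SSC (limma, adjusted p = 0.0132) and 1.54 in Thy minus SSC (adjusted p = 0.0287). Leaving out single arrays or mice, these calls were lost in 7 and 10 of 17 fits. Cd200, Itgav, Enpep and Tek passed in no population contrast, and Ptprc was too dim to be tested. The induced gene Jun was not higher in the arrays labelled JUN. Its levels were 12.92 and 12.82 in CSP JUN and 13.37 and 13.24 in CSP -JUN, 13.03 and 12.90 in Thy JUN and 12.81 and 13.65 in Thy -JUN, and 13.18 and 12.13 in SSC JUN and 12.60 and 12.06 in SSC -JUN. The JUN arrays were lower in CSP and overlapped with -JUN in Thy and SSC, so JUN effects below are differences between arrays so labelled. Whether the probe set reads the inducible copy was not tested. Mouse 3 stood apart in Xist, at 12.49 to 13.20 in its 3 arrays against 6.11 to 7.29 in the other 9, and Tnmd, Egfl6 and Stk26 are X-linked. The mean of 17 cartilage marker genes was 13.03 in CSP JUN of mouse 4, 13.05 in CSP -JUN of mouse 3b and 13.24 in SSC JUN of mouse 4, against 8.50 to 10.81 in the other 9 arrays. In such bulk samples, fewer cells of a type and less RNA per cell cannot be told apart. Spiked poly-A control means were 8.89 to 10.42 in CSP, 10.03 to 10.87 in Thy and 7.74 to 9.95 in SSC. Over the 12 arrays their Pearson correlation was -0.60 with Egfl6, -0.58 with Htra4, -0.38 with Stk26 and -0.33 with Tnmd. With Smoc1 and Mkx it was -0.16 and -0.12, and with Thbs4, Scx and Tnc 0.66, 0.61 and 0.40. The part of this in the levels was not tested.

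Among the transcription factors, the spread between arrays of one population was as wide as the gaps between populations. Scx had levels of 7.87 and 7.86 in the CSP JUN arrays and 7.57 and 7.87 in the CSP -JUN arrays, 8.18 and 7.19 in Thy JUN and 7.06 and 7.64 in Thy -JUN, and 8.49 and 6.94 in SSC JUN and 7.11 and 6.15 in SSC -JUN. Both its highest and its lowest array were SSC arrays, and all 3 populations overlapped. The mean was 7.79 ± 0.15 in CSP, 7.52 ± 0.51 in Thy and 7.17 ± 0.97 in SSC (SD, n = 4 each). Scx was dim, above the median of its own array in 5 of 12 arrays, and a further probe set of it was above in 0.

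Mkx was also dim, above the array median in 5 arrays. Its levels were 8.87 and 6.07 in CSP JUN and 8.27 and 8.54 in CSP -JUN, 7.49 and 6.89 in Thy JUN and 6.66 and 7.17 in Thy -JUN, and 8.02 and 7.10 in SSC JUN and 6.90 and 7.75 in SSC -JUN. The CSP arrays of mice 4, 3 and 3b were the highest of all 12, while CSP JUN of mouse 7 was the lowest. CSP minus Thy was 0.88 over all arrays, 1.504 without CSP JUN of mouse 7 and 0.12 without the 3 arrays of high cartilage markers, 2 of which are among those CSP arrays.

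Tnmd was bright everywhere and ordered the populations without overlap. Its levels were 13.81 and 13.44 in CSP JUN and 13.64 and 13.72 in CSP -JUN, 12.41 and 12.59 in Thy JUN and 12.41 and 12.50 in Thy -JUN, and 12.83 and 12.88 in SSC JUN and 13.00 and 13.33 in SSC -JUN. Every CSP array lay above every SSC array, and every SSC array above every Thy array. The means were 13.65 ± 0.16 in CSP, 12.48 ± 0.088 in Thy and 13.01 ± 0.23 in SSC (SD, n = 4 each), so that CSP was 2.26-fold above Thy and 1.56-fold above SSC. Since the genes were listed with these differences known, they are given as a description, with no test.

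Of the matrix glycoproteins, Thbs4 differed little and Tnc did not separate the populations. Thbs4 had 14.12 and 14.32 in CSP JUN and 14.08 and 13.98 in CSP -JUN, 14.36 and 14.01 in Thy JUN and 13.90 and 14.01 in Thy -JUN, and 13.94 and 13.67 in SSC JUN and 13.92 and 13.31 in SSC -JUN. All CSP arrays lay above all SSC arrays, by a mean of 0.42, while Thy overlapped both. Tnc had 13.33 and 12.88 in CSP JUN and 12.64 and 12.89 in CSP -JUN, 13.79 and 12.81 in Thy JUN and 12.53 and 13.38 in Thy -JUN, and 13.86 and 13.11 in SSC JUN and 12.90 and 12.66 in SSC -JUN. Its CSP minus Thy difference was -0.19, and in each population mouse 4 had the highest value. A dimmer Tnc probe set, above the array median in 4 arrays, gave 1.15 for CSP minus Thy (0.70 to 1.84 with single arrays left out), so the probe sets of Tnc disagree.

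**Figure D1:**
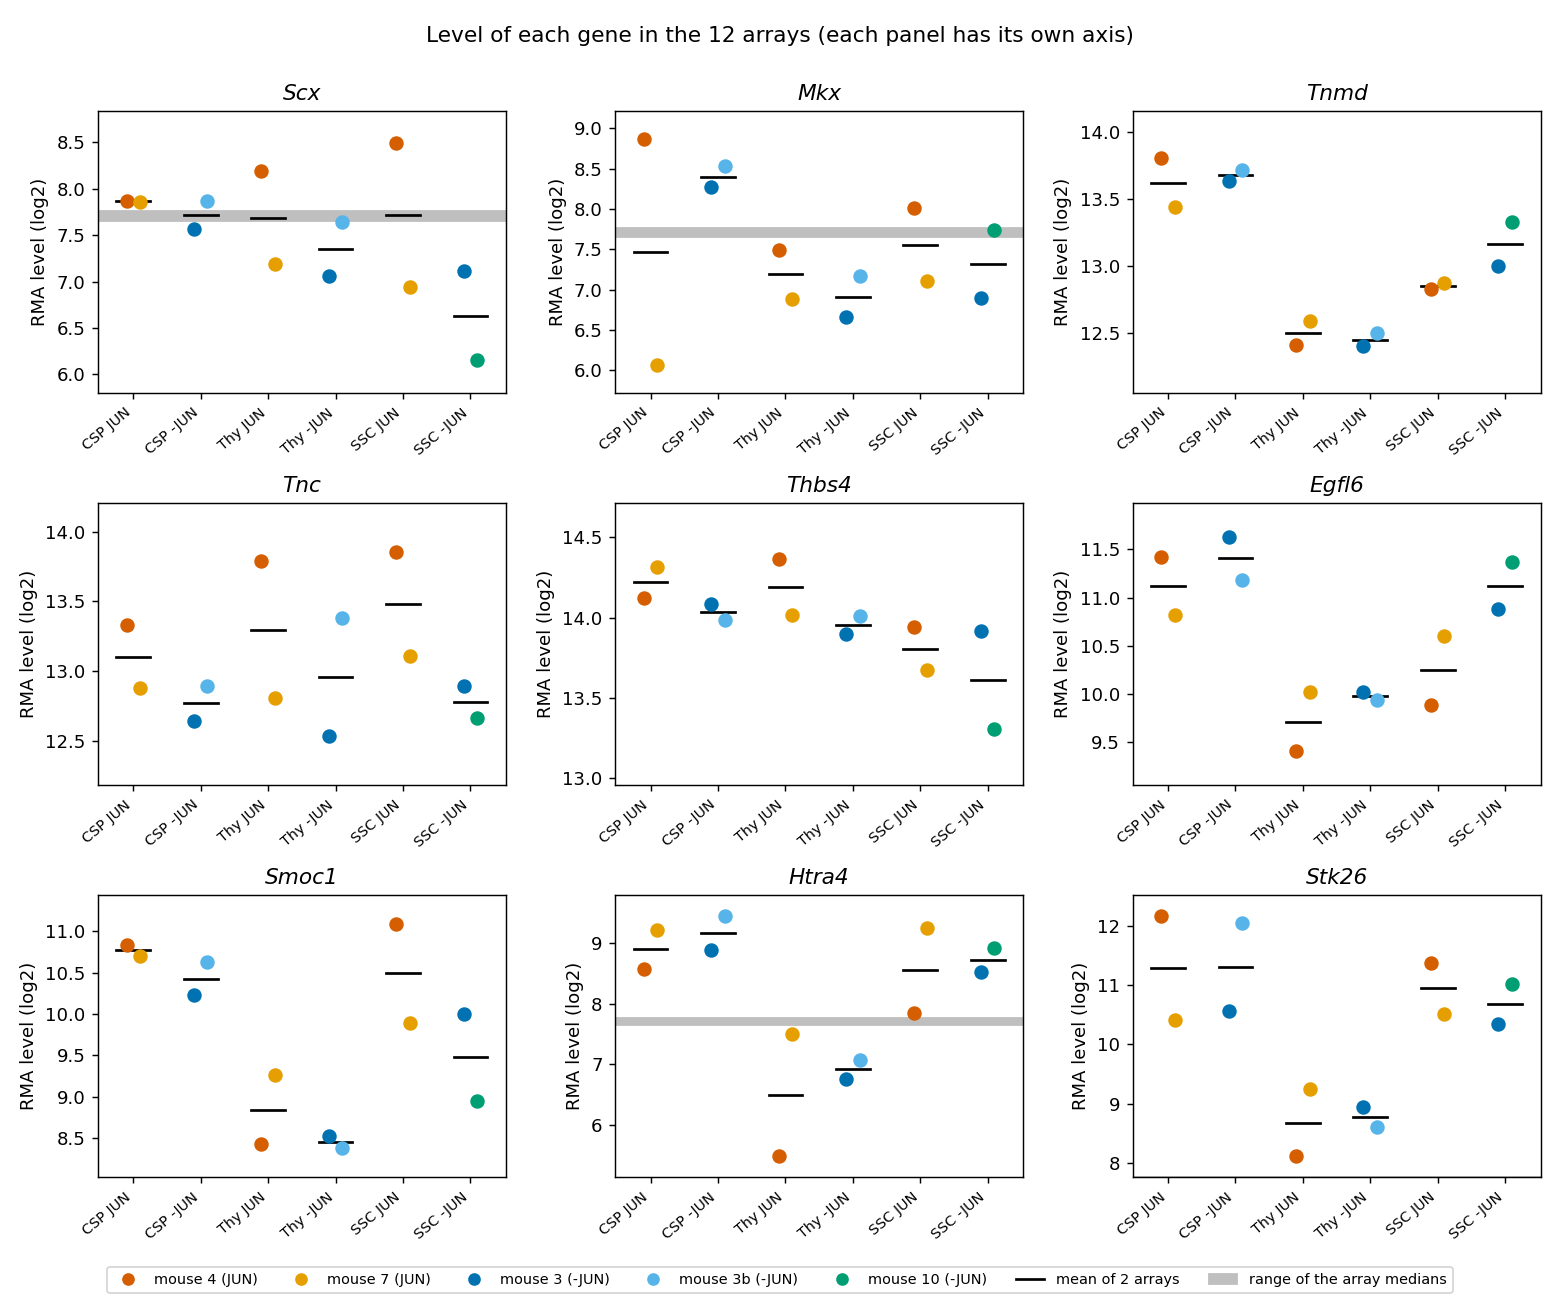
Log2 level of each of the 9 genes in every array, 1 panel per gene, with the populations CSP, Thy and SSC from left to right and JUN left of -JUN. Points are arrays, coloured by mouse, short lines are the means of 2 arrays, and the grey band is the range of the array medians. The Tnmd populations do not overlap, and the 4 Thy arrays of Htra4 and Stk26 lie below all arrays of CSP and SSC.

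For the secreted proteins and the kinase, all CSP arrays lay above all Thy arrays. Egfl6 had 11.42 and 10.82 in CSP JUN and 11.63 and 11.19 in CSP -JUN, 9.41 and 10.02 in Thy JUN and 10.02 and 9.94 in Thy -JUN, and 9.89 and 10.61 in SSC JUN and 10.88 and 11.37 in SSC -JUN. All CSP arrays lay above all Thy arrays, 2.67-fold in the mean, and SSC overlapped both. Smoc1 had 10.83 and 10.70 in CSP JUN and 10.22 and 10.63 in CSP -JUN, 8.43 and 9.26 in Thy JUN and 8.52 and 8.38 in Thy -JUN, and 11.09 and 9.89 in SSC JUN and 10.00 and 8.95 in SSC -JUN. CSP again lay above Thy in all arrays, 3.87-fold in the mean, and the SSC arrays ran from inside the Thy range to above the CSP range.

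Htra4 and Stk26 were lowest in Thy. Htra4 had 8.58 and 9.22 in CSP JUN and 8.89 and 9.44 in CSP -JUN, 5.49 and 7.50 in Thy JUN and 6.77 and 7.08 in Thy -JUN, and 7.85 and 9.25 in SSC JUN and 8.52 and 8.92 in SSC -JUN. The Thy arrays did not overlap with either other population, and in all 4 of them Htra4 was below the array median, where RMA compresses differences. CSP was 5.02-fold above Thy in the mean. Stk26 had 12.16 and 10.41 in CSP JUN and 10.56 and 12.05 in CSP -JUN, 8.11 and 9.25 in Thy JUN and 8.94 and 8.61 in Thy -JUN, and 11.37 and 10.51 in SSC JUN and 10.34 and 11.02 in SSC -JUN. Every Thy array was again below every other array, and CSP was 5.95-fold above Thy in the mean, or 10.0-fold by a further probe set of Stk26. That further value was 6.18-fold without Thy JUN of mouse 4, where the probe set was below the array median.

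Counted over the 9 genes, all 4 CSP arrays were above all 4 Thy arrays for 5 genes, Tnmd, Egfl6, Smoc1, Htra4 and Stk26, against 1.82% of the genes tested. All CSP arrays were above all SSC arrays for 2 genes, Tnmd and Thbs4, against 1.86%. All Thy arrays were below all SSC arrays for 3 genes, Tnmd, Htra4 and Stk26, against 2.41%. These counts follow from how the genes were listed.

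Pairs of populations sorted from one mouse show how large the CSP minus Thy gaps of these 5 genes were. Their direction was fixed in advance, since all CSP arrays lay above all Thy arrays. The same holds for Tnmd in CSP minus SSC. CSP minus Thy was 0.85 to 1.40 for Tnmd over mice 3, 3b, 4 and 7, and 0.80 to 2.02 for Egfl6. It was 1.45 to 2.41 for Smoc1, 1.73 to 3.09 for Htra4 and 1.16 to 4.06 for Stk26. All 5 were lowest in mouse 7 and highest in mouse 4. For CSP minus SSC, Tnmd was higher in each of mice 3, 4 and 7, by 0.64, 0.98 and 0.57, while Smoc1, Htra4 and Stk26 each had a mouse with the opposite sign. In mouse 4, the only mouse whose SSC array has no date in its title, CSP minus SSC was 0.98 for Tnmd, 1.53 for Egfl6, 0.18 for Thbs4 and -0.25 for Smoc1, and Thy minus SSC was -2.36 for Htra4 and -3.27 for Stk26.

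**Figure D2:**
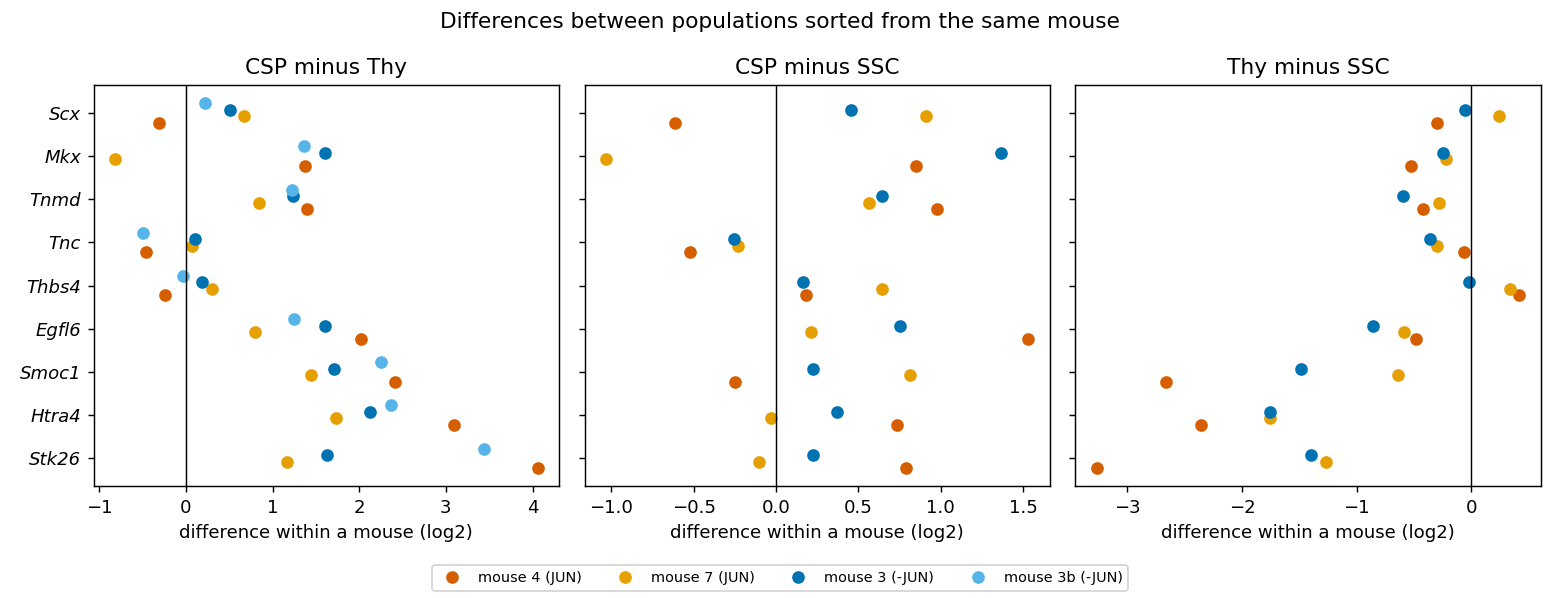
Log2 difference between populations sorted from the same mouse, for CSP minus Thy, CSP minus SSC and Thy minus SSC, with 1 point per mouse. Tnmd, Egfl6, Smoc1, Htra4 and Stk26 are above 0 in all 4 mice for CSP minus Thy, from 0.80 (Egfl6, mouse 7) to 4.06 (Stk26, mouse 4). This sign follows from all their CSP arrays lying above all their Thy arrays.

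The cartilage marker mean moved with some of these genes. Its values were 13.03 and 10.04 in CSP JUN and 9.51 and 13.05 in CSP -JUN, 9.50 and 9.14 in Thy JUN and 8.50 and 9.53 in Thy -JUN, and 13.24 and 10.10 in SSC JUN and 10.81 and 9.87 in SSC -JUN. Over the 12 arrays its Pearson correlation was 0.81 with Stk26, 0.77 with Smoc1, 0.67 with Mkx and 0.55 with Tnmd, and after each population's mean was taken off it was 0.72, 0.62, 0.58 and 0.04. With Scx, Tnc, Htra4, Egfl6 and Thbs4 it was 0.50, 0.44, 0.40, 0.29 and 0.05 over the arrays. Within populations these were 0.66, 0.68, -0.36, -0.47 and 0.26. The arrays share mice and populations, so these are descriptions. Without the 3 arrays of high cartilage markers, a choice made after seeing the data, CSP minus Thy was 1.76 for Stk26, 1.82 for Smoc1, 2.35 for Htra4, 1.38 for Egfl6 and 1.06 for Tnmd. The part of cartilage cells in the differences was not tested further.

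**Figure D3:**
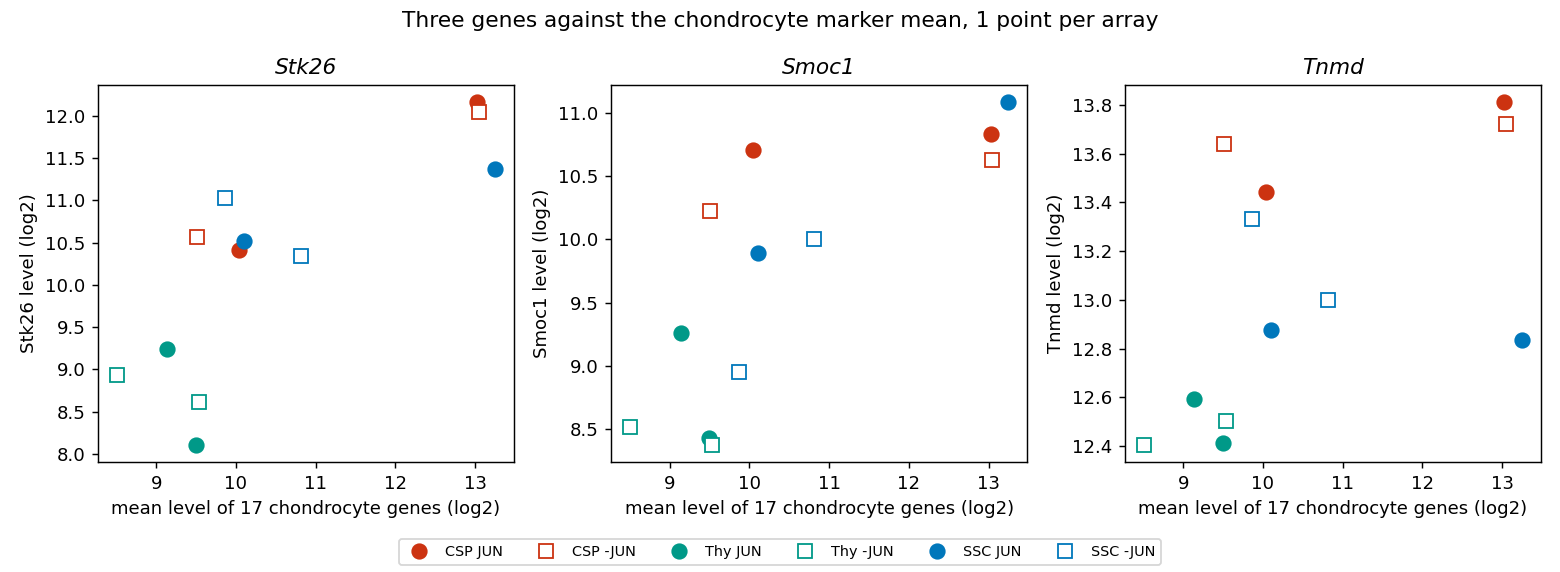
Log2 level of 3 genes (y axes) against the mean log2 level of 17 cartilage marker genes (x axes), 1 point per array, with populations and arms marked. The 2 CSP arrays of high marker mean have the highest Stk26 levels (12.16 and 12.05), and the SSC array of high marker mean has the lowest Tnmd level of SSC (12.83).

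Markers of some other cell types differed between the populations too. The muscle marker ranges overlapped, and no tested muscle or blood cell marker passed in any population contrast. Muscle markers averaged 8.18 to 9.25 in CSP, 8.06 to 8.90 in Thy and 8.09 to 8.78 in SSC (11 of 11 listed genes on the array, dim ones included), and blood cell markers 7.00 to 7.59, 7.16 to 7.50 and 6.78 to 7.03 (9 of 9). Smooth muscle and pericyte markers averaged 10.20 to 10.64 in CSP, 11.22 to 11.85 in Thy and 10.56 to 11.51 in SSC (8 of 8). Their mean had a correlation of -0.87 with Tnmd and -0.87 with Egfl6 over the 12 arrays, and of -0.37 and -0.60 within populations. With Tnc and Scx the correlation was 0.61 and 0.23 over the arrays, and 0.87 for each within populations. Fibroblast markers averaged 12.48 to 12.96 in CSP, 13.05 to 13.45 in Thy and 12.32 to 12.86 in SSC (7 of 8), with a correlation of -0.81 with Stk26 and -0.70 with Tnmd, and of -0.34 and -0.47 within populations. Schwann cell markers averaged 7.46 to 8.73 in CSP, 8.58 to 11.05 in Thy and 9.83 to 11.12 in SSC (4 of 6). In CSP minus Thy, Sox10 was at -3.06 ± 0.35 (limma, adjusted p = 0.00272) and Mbp at -2.88 ± 0.52 (adjusted p = 0.0217). Cdh19, at -1.64, did not pass, and S100b went the other way, at 0.86, and did not pass. Of 8 smooth muscle and pericyte markers, 3 passed as lower in CSP than in Thy (limma) and 2 were higher without passing. The 3 were Rgs5 at -2.66 (adjusted p = 0.00132), Mcam at -1.95 (adjusted p = 0.00863) and Acta2 at -1.16 (adjusted p = 0.0274). Of 7 fibroblast markers Pi16 passed, at -2.785 (limma, adjusted p = 0.00727), and 2 were higher. Of 7 vessel lining markers Esam passed, at -1.67 (limma, adjusted p = 0.0142), and 5 were higher. Adipocyte and reticular cell markers averaged 10.29 to 10.59 in CSP, 9.83 to 10.45 in Thy and 9.75 to 11.33 in SSC (8 of 8). Within populations their mean correlated at 0.92 with Egfl6 and -0.94 with Scx. Bone-forming cell markers averaged 7.38 to 9.52 in CSP, 7.94 to 8.48 in Thy and 9.18 to 10.79 in SSC (7 of 10), and vessel lining markers 7.93 to 9.06, 7.65 to 8.57 and 7.16 to 7.63 (9 of 9). The part of these cells in the differences was not tested.

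Genes that varied alike fell into more than 1 pattern. Tnmd and Egfl6 had a correlation of 0.91 over the 12 arrays and 0.77 within populations, whereas Scx ran with Tnc within populations (0.88) and against Egfl6 (-0.89). Tnmd and Scx had 0.04 over the arrays and -0.59 within populations. With the 9 genes themselves left out, those of highest correlation with Tnmd over the 12 arrays were Bmper (0.91, and 0.32 within populations), a secreted BMP-binding protein, Pdk1 (0.91, and 0.76 within) and C1qtnf3 (0.89, and 0.75 within). For Stk26 they were Crispld1 (0.98), Bnip3 (0.93) and Ecrg4 (0.93), and Crispld1 kept 0.97 within populations. For Egfl6 they were Sema3a (0.94), Septin6 and Zcchc7, for Htra4 Slc40a1 (0.91), the iron exporter ferroportin, Clic5 and Sema3a, and for Smoc1 Cytl1 (0.91), Stk38l and Col22a1. For Scx they were Ltbp3 (0.97), which binds latent TGF-beta, Rgs3 and Emilin1, for Mkx Myo6 (0.92), Rin2 and Ell2, for Tnc Fasn (0.93), Runx3 and Gpc1, and for Thbs4 Tmem120b (0.97), Rab11fip5 and Dennd6b. Each is among the 3 highest correlations of a gene with all genes tested other than the 9, over arrays that share mice, and carries no test.

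The JUN label was not used to list the genes, so its effect could be tested, with 2 arrays against 2 in a population and the spread pooled over all groups. No member passed in any population (limma, Benjamini-Hochberg adjusted p of 0.985 or more in CSP and Thy and 0.69 or more in SSC), and 0% of the 12516 genes did. At an unadjusted p under 0.05 there were 0 members in CSP, 0 in Thy and 1 in SSC, against 2.3%, 3.04% and 6.5% of all genes. No label says that samples came from separate cultures or litters, and p-values measure only the spread between these samples.

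In CSP, the genes of lowest p were Mkx, with JUN minus -JUN of -0.93 ± 0.74 (SE), and Tnc, with 0.34 ± 0.43, both at an adjusted p of 0.995. The Mkx value rests on CSP JUN of mouse 7, and without that array the difference was 0.46. In Thy they were Smoc1, with 0.39 ± 0.48, and Tnc, with 0.34 ± 0.43, both at an adjusted p of 0.985, and the Smoc1 difference was -0.022 without Thy JUN of mouse 7. In SSC they were Egfl6, with -0.88 ± 0.38 (adjusted p = 0.69), and Smoc1, with 1.01 ± 0.48 (adjusted p = 0.69). Without SSC JUN of mouse 4, which leaves only arrays with a date in their titles, Egfl6 was at -0.52 and Smoc1 at 0.42. Smoc1 was also at 0.49 without SSC -JUN of mouse 10, 1.54 without SSC -JUN of mouse 3 and 1.61 without SSC JUN of mouse 7. The Egfl6 level was 9.89 and 10.61 in SSC JUN and 10.88 and 11.37 in SSC -JUN, so the arms did not overlap, with spiked poly-A control means of 9.95 and 8.92 in SSC JUN against 7.74 and 8.28 in SSC -JUN. The part of the controls' difference in it was not tested.

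Arms did not overlap for 2 of the 9 genes in CSP (Thbs4 and Smoc1, higher with JUN), 1 in Thy (Thbs4, higher) and 3 in SSC (Tnc higher, Tnmd and Egfl6 lower). All genes tested gave 31.2% in CSP, 28.6% in Thy and 38.4% in SSC, and the members' shares were no higher. Averaged over the populations, the members of lowest p were Egfl6, at -0.48 ± 0.22 (adjusted p = 0.396), and Smoc1, at 0.58 ± 0.28 (adjusted p = 0.401). The average differed from 0 by less than 1 SE for Tnmd (-0.11 ± 0.16), Mkx (-0.14 ± 0.43), Htra4 (-0.29 ± 0.37) and Stk26 (0.05 ± 0.39). For Thbs4 it was 0.20 ± 0.18, for Scx 0.52 ± 0.31, and for Tnc 0.46 ± 0.25, and the Scx and Tnc values were 0.10 each without mouse 4. Mouse 4 had the highest Scx and Tnc of each population, level with mouse 3b for Scx in CSP. With 1 value per mouse, 2 JUN against 3 -JUN mice, Egfl6 was at -0.55 (adjusted p = 0.35) and Smoc1 at 0.73 (adjusted p = 0.344). The effect of JUN did not differ between populations by the moderated F test for any of the 9 genes (adjusted p = 1), nor for any gene tested, of which 1.15% had an unadjusted p under 0.05.

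**Figure D4:**
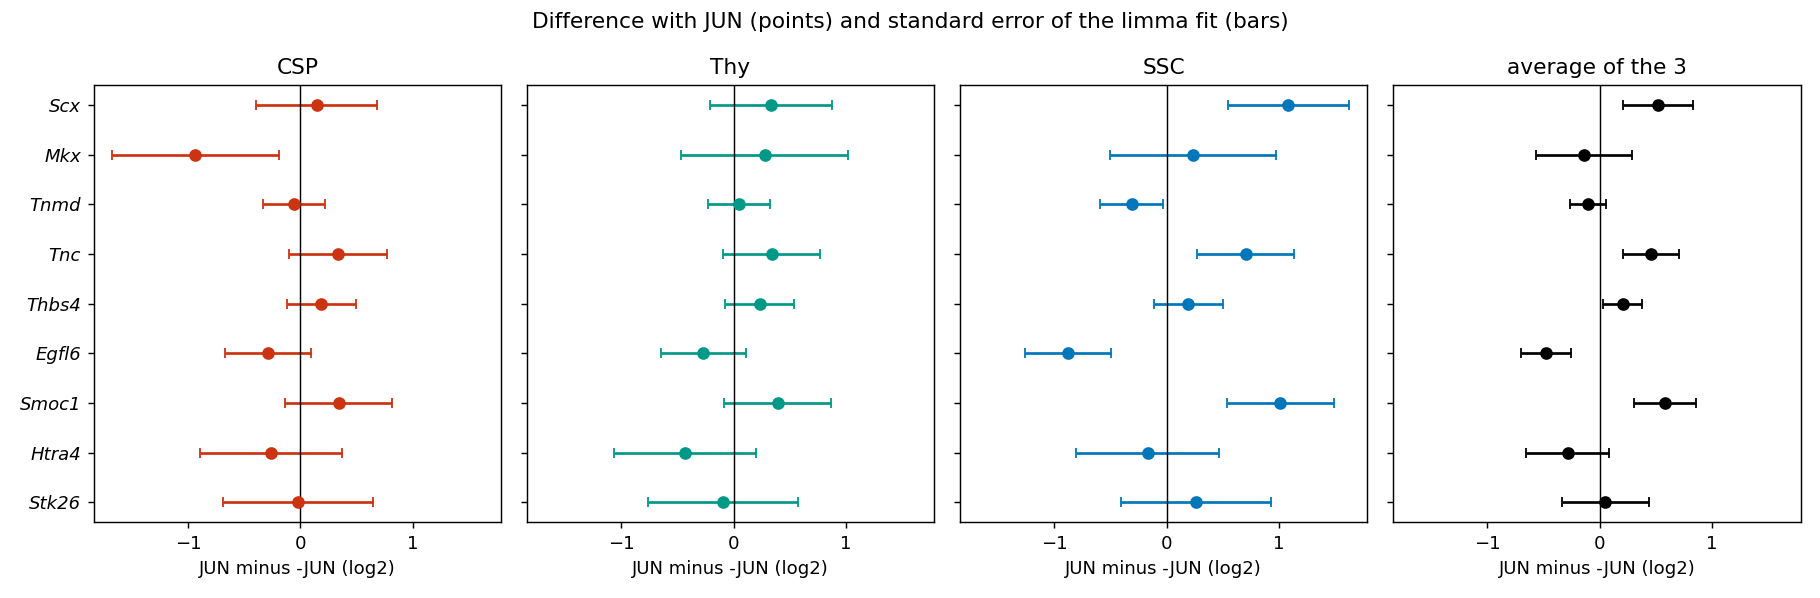
Log2 difference of JUN minus -JUN arrays for the 9 genes in each population and averaged over the populations. Points are the fitted differences and bars their standard errors, and the widest in SSC are Scx at 1.08, Smoc1 at 1.01 and Egfl6 at -0.88, none of which passed.

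Lists of related genes, without the 9 members, were counted against all genes. The lists too were chosen with earlier results of these data known, so their counts and p-values for population contrasts are descriptions. In the tendon and ligament list, Comp (1.75 in CSP minus Thy) and Col11a1 (1.12) are also cartilage markers. All 17 cartilage markers were higher in CSP than in Thy, with a median of 2.28, and 0 passed. Of 25 tendon and ligament genes tested, 18 were higher in CSP than in Thy, with a median of 0.26 against -0.04 for all genes, and 1 passed (0.991% of all genes passed in either direction). That gene was Fibin, a secreted protein, at 1.003 ± 0.19 (SE, limma, adjusted p = 0.0245). Its levels were 12.62 and 12.31 in CSP JUN and 12.85 and 12.50 in CSP -JUN, 11.57 and 11.79 in Thy JUN and 11.49 and 11.41 in Thy -JUN, and no CSP array overlapped with Thy. With the mouse as a block its adjusted p was 0.0581, and it was 0.055 to 0.1 without any 1 of 6 of the 8 CSP and Thy arrays, namely those of mice 3, 3b and 4. For CSP minus SSC, 22 of the 25 were higher, with a median of 0.22 against 0.05, and 0 passed (0.431% of all genes passed). Those of lowest p were Cilp, a cartilage and tendon matrix protein, at 0.67 ± 0.20 (adjusted p = 0.372), and Col12a1, a fibril-associated collagen, at 0.46 ± 0.20 (adjusted p = 0.751). For Thy minus SSC, 11 of the 25 were higher and 0 passed (0.391% of all genes), with Fibin at -0.78 (adjusted p = 0.0904) and Kera, the corneal and tendon proteoglycan keratocan, at -1.18 ± 0.32 (adjusted p = 0.127).

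Of 22 tested relatives of the members, such as other tenascins, thrombospondins, SPARC proteins and HtrA proteases, 0 passed in any of the 3 population contrasts. In CSP minus Thy, 10 of the 22 were higher, with a median of -0.0455 against -0.0411 for all genes, and the lowest p were for Htra3, an HtrA protease, at -0.89 ± 0.22 (adjusted p = 0.109), and Smoc2, the relative of Smoc1, at 0.98 ± 0.26 (adjusted p = 0.13). In CSP minus SSC, 20 of the 22 were higher, with a median of 0.32 against 0.05 for all genes, and the lowest p were for the SPARC relatives Sparcl1, at 0.70 ± 0.21 (adjusted p = 0.373), and Spock2, at 0.80 ± 0.30 (adjusted p = 0.646). In Thy minus SSC, 18 of the 22 were higher, with a median of 0.28 against 0.09, and the lowest p were for Htra3, at 1.09 ± 0.22 (adjusted p = 0.0622), and Tcf15, the bHLH relative of Scx, at 1.08 ± 0.25 (adjusted p = 0.0884). Cnmd, the cartilage relative of Tnmd and itself 1 of the cartilage markers, had 14.22 and 10.93 in CSP JUN and 10.16 and 14.03 in CSP -JUN, against 9.30 and 9.05 in Thy JUN and 7.58 and 9.17 in Thy -JUN. Its CSP arrays ran from 10.16 to 14.22, while those of Tnmd ran from 13.44 to 13.81, and CSP minus Thy for Cnmd was 3.56 ± 0.99 (adjusted p = 0.156).

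Of 27 tested partners and upstream signals of Scx, such as E proteins, Id proteins and the TGF-beta and FGF pathways, 0 passed in any population contrast. Tgfbr1, a TGF-beta receptor, had the lowest p in CSP minus Thy, at 0.95 ± 0.28 (adjusted p = 0.176), followed by its ligand Tgfb2, at 0.56 ± 0.22 (adjusted p = 0.327). In Thy minus SSC, Tgfbr1 was at -0.85 ± 0.28 (adjusted p = 0.17) and Id2, an inhibitor of bHLH dimers, at -0.66 ± 0.25 (adjusted p = 0.215). In CSP minus SSC the inhibitors Id4, at -0.56 ± 0.25 (adjusted p = 0.76), and Id3, at 0.56 ± 0.28 (adjusted p = 0.816), had the lowest p. Of 17 tested binding partners, 1 passed in CSP minus Thy, against 0.991% of all genes. Over the 4 lists together, 2 of 90 genes passed there (2.22%). The binding partner was Itgb3, an integrin chain that with Itgav forms a tenascin-C receptor, at -1.29 ± 0.26 (adjusted p = 0.0373). Its levels were 10.38 and 11.55 in CSP JUN and 11.14 and 10.84 in CSP -JUN, 12.52 and 12.12 in Thy JUN and 12.10 and 12.33 in Thy -JUN, with no overlap. With the mouse as a block its adjusted p was 0.0768, and it was 0.0525 to 0.117 without any 1 of 9 arrays, all but SSC JUN of mouse 4, SSC -JUN of mouse 10 and CSP JUN of mouse 7. Of these 17 genes 0 passed in CSP minus SSC, where Itgb1 was at -0.42 ± 0.17 (adjusted p = 0.708) and Ccm2, a partner in the PDCD10 complex, at 0.56 ± 0.26 (adjusted p = 0.761), or in Thy minus SSC, where Itgb3 was at 0.82 ± 0.26 (adjusted p = 0.161) and Itgav at -0.62 ± 0.27 (adjusted p = 0.265). Without the 3 arrays of high cartilage markers neither Fibin (adjusted p = 0.21) nor Itgb3 (adjusted p = 0.319) passed. For JUN, 0 genes of these 4 lists passed in any population or in the average.

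**Figure D5:**
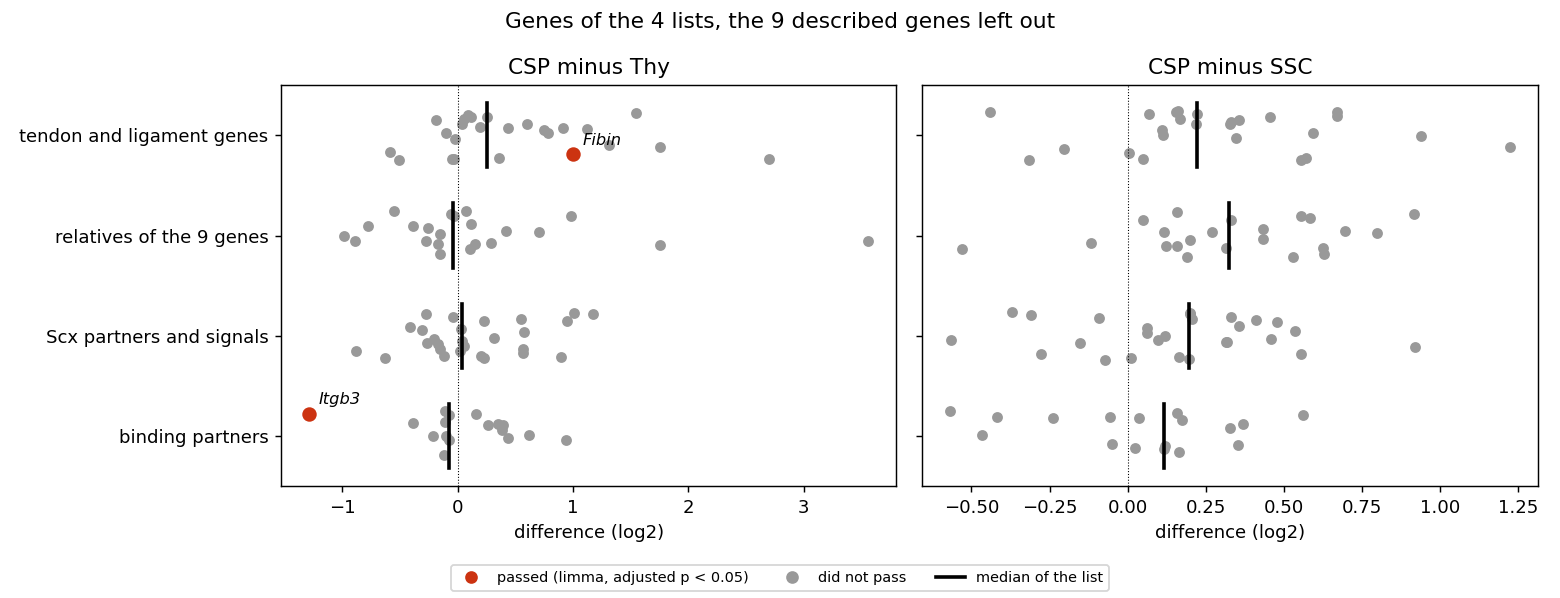
Log2 differences of the genes of the 4 lists, members left out, for CSP minus Thy and CSP minus SSC, 1 point per gene, with the list's median as a bar. Fibin at 1.003 and Itgb3 at -1.29, both in CSP minus Thy, are the 2 genes that passed.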

How the data were processed

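The authors deposited 1 log2 level for each probe set and array. RMA made them, per the submitters' processing notes, with no software or settings named. RMA gives all arrays a common distribution and compresses dim differences, and the number of arrays limits the precision. Of 45101 probe sets, 64 controls were left out and 34945 had 1 symbol in the platform annotation, 932 several and 9160 none. Probe sets above their array's median in at least 2 arrays were kept, and the one of highest mean stood for its gene, which left 12516 of 18193 genes.

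All tests were two-sided and used lmFit and eBayes of limma 3.58.1 (R 4.3.3). P-values were adjusted over all 12516 genes by Benjamini-Hochberg, with calls under 0.05. The JUN fit had 6 group means and 6 residual degrees of freedom, and the population fit had terms for population and arm and 8. The average JUN effect treats arrays of one mouse as independent. The code was tested on simulated data. The 9 genes and the lists were chosen with earlier results of these data known. Named were all 9 genes, for JUN the 2 of lowest p in each comparison, for each list those that passed or the 2 of lowest p, and the 3 genes most like each member. Same-numbered arrays of an arm come from the same mouse by their titles, and their deviations correlated at -0.214 to 0.429. For CSP with Thy this was -0.214 in the JUN arm and 0.0916 in the -JUN arm. Numbers shared between arms are different mice, and their deviations correlated at -0.103 in CSP and -0.18 in Thy.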

Additional observations from a re-analysis of the deposited data

Results flagged for a closer look

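In 3 cases a value stood apart from the other 3 arrays of their population by Dixon's test at the 95% level, which was applied to each of the 9 genes in each population of 4 arrays and flags about 1 in 20 groups by chance. Scx was 7.57 in CSP -JUN of mouse 3, below the other CSP arrays. Egfl6 was 9.41 in Thy JUN of mouse 4, below the other Thy arrays. Smoc1 was 9.26 in Thy JUN of mouse 7, above the other Thy arrays.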

How the results depend on the processing

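With 2 arrays per group, the standard errors of the members' JUN effects in a population were 0.28 to 0.74. Small JUN effects were thus beyond these data, and larger ones could be missed too. No member was called for JUN under any alternative. Averaging a gene's probe sets gave Tnc JUN effects of -0.84 in CSP, -0.16 in Thy and -0.14 on average, and -0.20 for Stk26. The average for Stk26 was also -0.042 with 1 value per mouse, -0.26 with a term for mouse 3 and -0.14 without the 3 arrays of high cartilage markers, where Htra4 was 0.15. A replicate block on the label's number gave Mkx 0.12 and called 0 genes. Leaving out single arrays or mice, the ranges were -2.33 to 0.46 for Mkx in CSP, -0.022 to 0.81 for Smoc1 and -0.15 to 0.83 for Tnc in Thy, and on average -0.86 to 0.58 for Mkx, -0.96 to 0.39 for Htra4 and -0.26 to 0.34 for Stk26. Genes called for JUN were then 0 to 1 in SSC and 0 to 495 on average, the 495 without mouse 7. Without mouse 7, every JUN array left came from mouse 4, and the fit treats these arrays as independent. The 495 thus cannot tell an effect of JUN from features of mouse 4. The CSP and SSC arrays of mouse 4 are also among the 3 arrays of high cartilage markers. Genes called were 7 to 62 for CSP minus SSC (7 without mouse 7), 17 to 155 for CSP minus Thy (17 without mouse 3) and 3 to 304 for Thy minus SSC (304 without SSC JUN of mouse 4). List genes called were 0 to 4 for CSP minus Thy and 0 to 3 for Thy minus SSC. The mouse block left 8 for CSP minus SSC and 4 for Thy minus SSC, and with the CSP JUN numbers crossed 4 and 6, and 143 for CSP minus Thy. The -JUN arrays alone gave 1 for CSP minus SSC, 50 for CSP minus Thy and 19 for Thy minus SSC, and the JUN arrays alone 5, 0 and 0. Neither arm alone called a list gene in CSP minus Thy (0). Without the 3 arrays of high cartilage markers the counts were 8 for CSP minus SSC, 18 for CSP minus Thy and 138 for Thy minus SSC, with 0 list genes called in CSP minus Thy and 1 in Thy minus SSC. A term for the dated SSC titles, added after seeing the data, gave 23 for CSP minus SSC and 10 for Thy minus SSC, with 4 list genes called in CSP minus Thy. With it the average for Stk26 was -0.095, Id3 was -0.11 in CSP minus SSC and Itgav was 0.11 in Thy minus SSC. In Thy minus SSC, no filter gave 24, and averaged probe sets 75 with 1 list gene, as did eBayes with trend and robust fitting (1). The cause was not tested.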
